A study of Arabidopsis thaliana with 24 samples.

Results

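UDP-glycosyltransferase genes of the UGT family were followed across an Arabidopsis thaliana experiment on salicylic acid (SA), a plant immune hormone, and the time of day at which it was given. The members are the 45 genes whose probe set carries a single gene symbol made of UGT and a number, without UGT76B1 and UGT74F1, whose enzymes glucosylate SA itself. They were read from 22746 probe sets tested, of which 13513 have 1 symbol, standing for 13356 genes. A further 3 UGT probe sets with several symbols were left out, among them the one shared by UGT73B2 and UGT73B3. Of 58 genes with a UGT symbol in the RefSeq gene table, 45 are members and 13 are not. The members fall into 11 number groups, which follow sequence relatedness: 9 genes in UGT71, 4 in UGT72, 7 in UGT73, 2 in UGT74, 7 in UGT76, 3 in UGT78, 5 in UGT84, 5 in UGT85, and 1 each in UGT80, UGT87 and UGT88. Sequence-related genes can share array signal.

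UGT enzymes move a sugar, most often glucose, from a UDP-sugar onto a small molecule. The sugar changes the solubility, transport and activity of the acceptor, so conjugation is a usual way for a plant cell to inactivate and store hormones, phenolics and foreign compounds. In leaves the known acceptors include flavonols, hydroxycinnamic acids, monolignols, glucosinolate precursors, sterols and most classes of hormone.

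Total RNA from true leaves of wild-type plants, 23 days old and grown in soil with 12 h days, was hybridised to 24 arrays. All plants had spent 24 h in constant light and stayed in it. The 8 groups are water or 1 mM SA, given at ZT24 or ZT36 (hours of zeitgeber time, counted from dawn), and sampled 0 h or 3 h later, with 3 arrays each that the labels call biological replicates. Each value is on the log2 scale with the gene's own median over the 24 arrays taken off, so 0 is that gene's own median, levels cannot be compared between genes, and the labelled tissue cannot be checked by the level of leaf markers. Differences are log2 differences with the standard error (SE) of limma, n = 3 arrays per group. A gene is called, and said to have risen or fallen, at a Benjamini-Hochberg adjusted p under 0.05 over all 22746 probe sets. In whole leaves, a change in the share of a cell type and a change in RNA per cell cannot be told apart.

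One property of the arrays touches every comparison. The arrays labelled water 3 h lay near those labelled water 0 h: limma with Benjamini-Hochberg adjustment called 0 of 22746 probe sets after ZT24 (0% called; the unadjusted p was under 0.05 for 728) and 2 after ZT36 (0.00879% called; 3049 by the unadjusted p). No member was among them, and 1 and 3 members had an unadjusted p under 0.05. The arrays labelled SA 0 h stood apart from water 0 h, with 16.2% of probe sets called at ZT24 and 29% at ZT36. GI, an evening-phased clock gene, differed between ZT24 and ZT36 by -4.10 ± 0.20 in the water 0 h arrays and by -0.41 ± 0.20 in the SA 0 h arrays. The labels were kept as deposited, and each result for the SA 3 h arrays is given against both water 3 h and SA 0 h. Whether the labels of the SA 0 h and water 3 h arrays are right was not tested, and if they are not, every difference from these arrays, gating values included, has another meaning.

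Among the 8 groups, 33 of the 45 UGT genes differed by limma's moderated F test, 73.3% beside 65.2% of all probe sets. The distance between the highest and the lowest group mean had a median of 0.98 over the members and 0.57 over all probe sets, and ran from 0.11 to 4.07 among the members. It was largest for UGT78D1 at 4.07, followed by UGT85A5 at 2.57, UGT73B5 and UGT87A2 at 2.53, UGT73B1 at 2.51, UGT74D1 at 2.15, UGT78D2 at 2.12 and UGT84A3 at 2.00. By number group, all genes of UGT74, UGT80, UGT87 and UGT88 passed, with 7 of 9 in UGT71, 2 of 4 in UGT72, 5 of 7 in UGT73, 4 of 7 in UGT76, 2 of 3 in UGT78, 4 of 5 in UGT84 and 4 of 5 in UGT85. The median range was highest in UGT78, at 2.12, and lowest in UGT71, at 0.49, among groups with more than 1 gene.

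**Figure D1:**
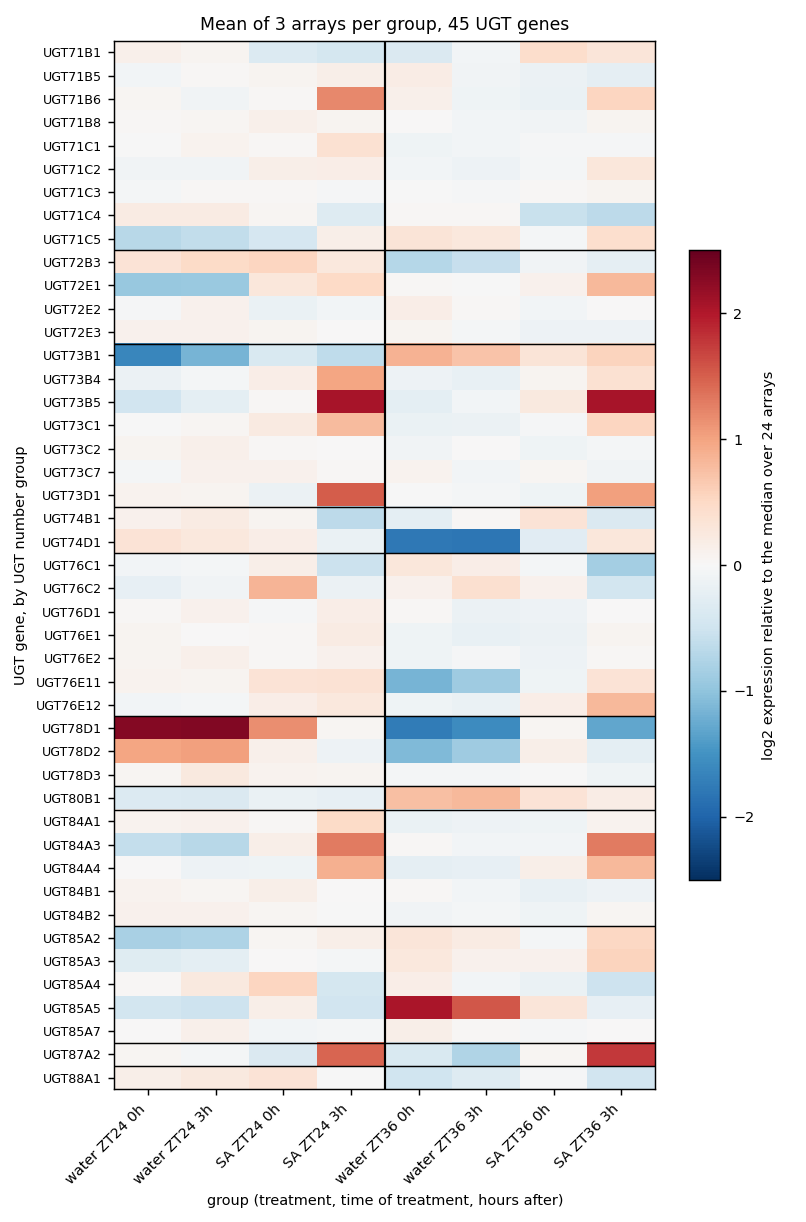
Heat map of the mean of 3 arrays in each of the 8 groups (columns) for the 45 UGT genes (rows, divided by number group), as log2 expression relative to each gene's median over 24 arrays. UGT78D1 spans 4.07, from its high means in the water ZT24 columns to its low means in the water ZT36 columns, and UGT73B5, UGT73D1, UGT84A3 and UGT87A2 are highest in the SA 3 h columns.

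Against water 3 h, the SA 3 h arrays differed in 24 of the 45 genes at ZT24 and in 22 at ZT36. The 24 are 53.3% of the members, beside 38.1% of all probe sets, with 15 higher (17.7% of all probe sets were called higher) and 9 lower (20.5%). The 22 are 48.9%, beside 40.2% of all, with 16 higher (18.5%) and 6 lower (21.6%). Against SA 0 h, 20 genes were called at each time: 11 higher (14.3% of all) and 9 lower (17.4%) at ZT24, beside 31.7% called in either direction, and 13 higher (13.3%) and 7 lower (16.4%) at ZT36, beside 29.7%. The median difference over the members was 0.05, 0.15, -0.02 and 0.13 in these 4 comparisons, and -0.03, -0.02, -0.03 and -0.01 over all probe sets. The members were called higher at a larger share than the array as a whole. The share called lower was near that of the array at ZT24 against water 3 h (20% beside 20.5%) and at ZT36 against SA 0 h (15.6% beside 16.4%). It was smaller at ZT36 against water 3 h (13.3% beside 21.6%) and somewhat larger at ZT24 against SA 0 h (20% beside 17.4%). UGT71B6, UGT73B5, UGT73D1, UGT76E1, UGT84A3, UGT84A4 and UGT87A2 were higher in all 4 comparisons, 15.6% of the members beside 8.63% of all probe sets. UGT74B1 and UGT76C1 were lower in all 4, 4.44% beside 8.38%. The ZT24 and ZT36 comparisons share no array: 15 members were called in both against water 3 h (62.5% of the first list, 68.2% of the second), beside 66.8% and 63.5% over all probe sets. Of these 15, UGT74D1 and UGT78D2 had opposite signs at the 2 times, beside 8.14% of all probe sets called in both. With SA 0 h as control, 15 were called in both (75% of each list), beside 72.2% and 77% over all probe sets. Of these 15, UGT74D1 had opposite signs, beside 0.25% of all probe sets called in both. Signs aside, the overlaps of the members were near those of the whole array.

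**Figure D2:**
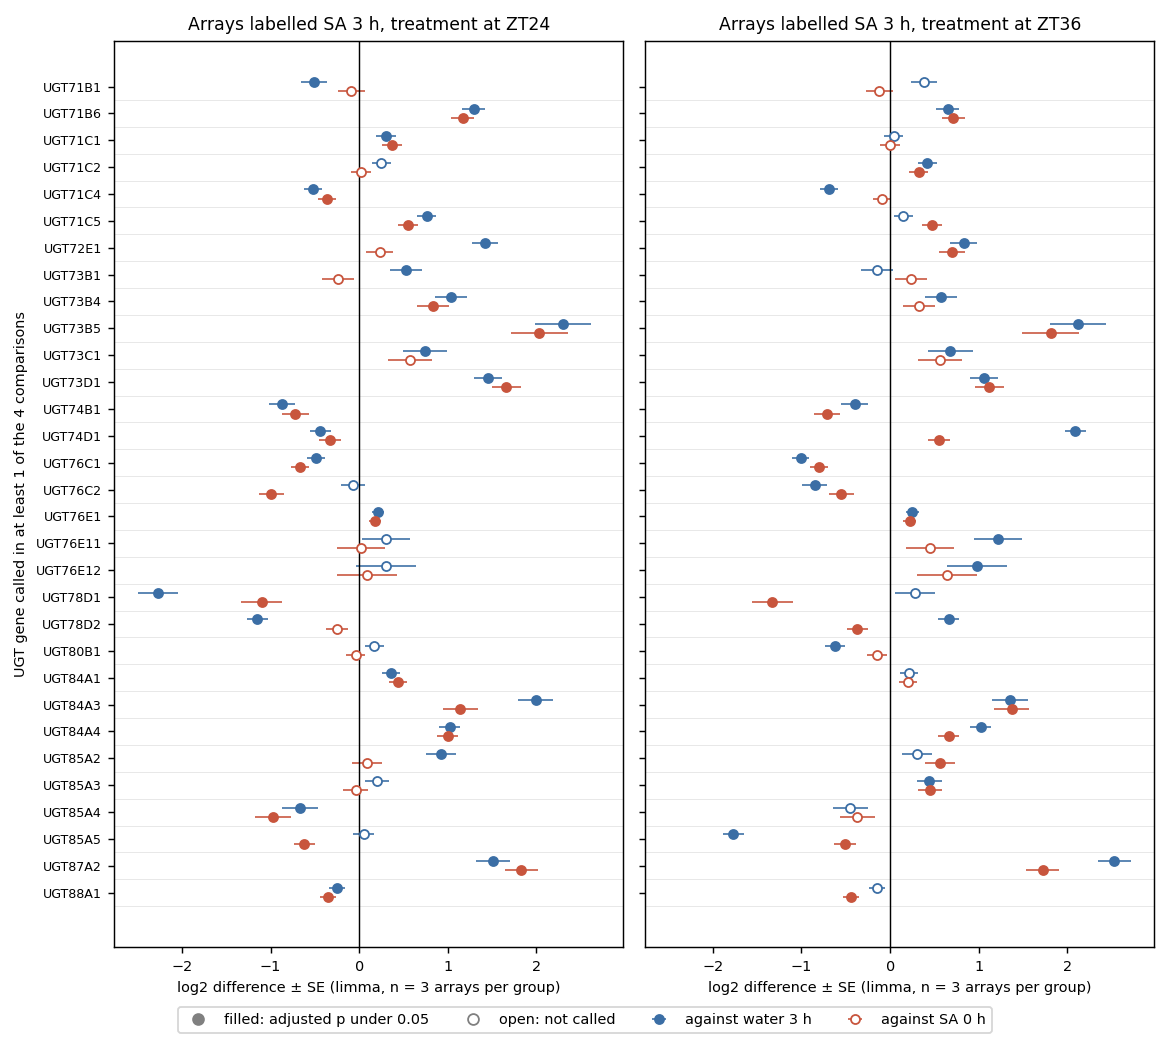
Log2 difference of the SA 3 h arrays, ± SE (limma, n = 3 arrays per group), against water 3 h (blue) and SA 0 h (red), for the 31 UGT genes called in at least 1 of the 4 comparisons, with filled points for adjusted p under 0.05. UGT73B5, UGT84A3, UGT73D1 and UGT87A2 lie to the right of 1 under both controls and at both times, while UGT74D1, UGT78D1, UGT78D2 and UGT85A5 move with the control or the time.

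Genes of the hydroxycinnamate branch were among the rises. UGT84A1, UGT84A3 and UGT84A4 encode enzymes that form glucose esters of hydroxycinnamic acids such as sinapic acid, the donors for sinapate esters of leaves. UGT84A3 stood at -0.73, -0.79 and -0.58 in the water 3 h arrays after ZT24, at -0.05, 0.05 and 0.43 in the SA 0 h arrays and at 1.54, 1.40 and 0.92 in the SA 3 h arrays. After ZT36 the corresponding values were -0.07, 0.13 and -0.22 in water 3 h, -0.06, 0.26 and -0.42 in SA 0 h and 1.54, 1.35 and 1.01 in SA 3 h. At both times every SA 3 h array was above every array of either control. The rise at ZT24 was 1.99 ± 0.20 against water 3 h (limma adjusted p = 6.8e-08) and 1.14 ± 0.20 against SA 0 h, and at ZT36 it was 1.35 ± 0.20 and 1.37 ± 0.20. At ZT24 the SA 0 h arrays already stood above water 0 h (0.75 ± 0.20, adjusted p = 0.013, lost as a call without array 3 of ZT24 SA 0 h, adjusted p = 0.077).

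UGT84A4 gave the same picture with a smaller spread between arrays. It stood at -0.19, -0.08 and -0.12 in water 3 h and 1.08, 0.81 and 0.79 in SA 3 h after ZT24, and at -0.32, -0.02 and -0.30 in water 3 h and 0.67, 1.02 and 0.73 in SA 3 h after ZT36. The rise was 1.02 ± 0.12 at ZT24 and 1.02 ± 0.12 at ZT36 against water 3 h, and 1.00 ± 0.12 and 0.66 ± 0.12 against SA 0 h. UGT84A1 rose at ZT24 by 0.36 ± 0.10 with water 3 h and 0.44 ± 0.10 with SA 0 h as control, and stood at 0.21 and 0.20 at ZT36, where it was not called. The first call was lost without array 1 of ZT24 SA 3 h (adjusted p = 0.081) or array 3 of ZT24 water 3 h (0.05), after quantile normalization (0.058) and with only the compared arrays (0.089), and the second with only the compared arrays (0.058). UGT84B1, whose enzyme conjugates the auxin indole-3-acetic acid, and UGT84B2 were called in none of the 4 comparisons, with differences between -0.13 and 0.15.

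Of the UGT72 group, UGT72E1, UGT72E2 and UGT72E3 encode enzymes that glucosylate lignin precursors, and only UGT72E1 was called. It stood at -0.98, -0.99 and -0.78 in water 3 h, -0.09, 0.37 and 0.55 in SA 0 h and 0.42, 0.40 and 0.68 in SA 3 h after ZT24. After ZT36 it stood at 0.01, -0.01 and -0.04 in water 3 h, 0.37, 0.10 and -0.13 in SA 0 h and 0.95, 0.88 and 0.61 in SA 3 h. The SA 3 h arrays were above every water 3 h array at both times, by 1.42 ± 0.15 at ZT24 (adjusted p = 1.4e-07) and 0.83 ± 0.15 at ZT36. Against SA 0 h the difference was 0.70 ± 0.15 at ZT36, lost as a call after quantile normalization (0.45, adjusted p = 0.056), and 0.23 ± 0.15 at ZT24, which did not pass. In the SA 0 h arrays at ZT24 the gene was already above water 0 h by 1.23 ± 0.15 (adjusted p = 1e-05). UGT72E2 and UGT72E3 differed by -0.16 to 0.10 in these 4 comparisons and passed no test of any kind. UGT72B3 was not called for SA either, at -0.27 to 0.36, and is described with the time of day.

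In the UGT73 group, 5 of the 7 genes were higher than water 3 h and none lower at ZT24, with a median of 0.74, and 4 were higher and none lower at ZT36, with a median of 0.57. Against SA 0 h, 3 and 2 were higher, with medians of 0.57 and 0.33. Over all probe sets, 17.7% and 18.5% were called higher against water 3 h, and 14.3% and 13.3% against SA 0 h. The counts include calls of UGT73B1, UGT73B4 and UGT73C1 that were lost under some alternatives, as given below. UGT73B5, an enzyme needed for full resistance to Pseudomonas in the hypersensitive response, stood at -0.18, -0.24 and -0.31 in water 3 h, 0.00, -0.04 and 0.13 in SA 0 h and 3.25, 1.10 and 1.82 in SA 3 h after ZT24. The ZT36 values were 0.00, -0.14 and -0.04 in water 3 h, 0.06, 0.41 and 0.28 in SA 0 h and 1.92, 2.36 and 1.90 in SA 3 h. The 3 SA 3 h arrays at ZT24 spread from 1.10 to 3.25, the widest of any group for this gene, yet all were above every other ZT24 array. The rise was 2.30 ± 0.32 at ZT24 (limma adjusted p = 6e-06) and 2.12 ± 0.32 at ZT36 against water 3 h, and 2.03 ± 0.32 and 1.81 ± 0.32 against SA 0 h.

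UGT73B4, its neighbour in the genome, encodes an enzyme able to conjugate products of the explosive TNT and stood at 0.02, 0.00 and -0.14 in water 3 h and 1.46, 0.84 and 0.67 in SA 3 h after ZT24. It rose by 1.04 ± 0.18 with water 3 h and 0.83 ± 0.18 with SA 0 h as control. At ZT36 the rise was 0.57 ± 0.18 against water 3 h, lost as a call without array 1 of ZT36 SA 3 h (adjusted p = 0.11) or array 2 of ZT36 water 3 h (0.054), and 0.33 ± 0.18 against SA 0 h, not called. UGT73D1 stood at -0.27, 0.63 and -0.18 in water 3 h, -0.07, -0.22 and -0.13 in SA 0 h and 1.40, 1.61 and 1.54 in SA 3 h after ZT24. At ZT36 the arrays read -0.12, -0.02 and 0.02 in water 3 h, 0.02, -0.21 and -0.10 in SA 0 h and 0.89, 1.21 and 0.95 in SA 3 h, so that the SA 3 h arrays were again above all others. It rose by 1.45 ± 0.16 and 1.06 ± 0.16 against water 3 h, and by 1.66 ± 0.16 and 1.12 ± 0.16 against SA 0 h.

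UGT73C1, whose enzyme can glucosylate cytokinins and TNT products, stood at 1.06, 1.11 and 0.20 in SA 3 h after ZT24 and at 0.57, 1.05 and -0.03 after ZT36, and at both times 1 array lay within the range of water 3 h. Its differences of 0.74 ± 0.25 and 0.68 ± 0.25 from water 3 h were called with adjusted p of 0.024 and 0.034. Both calls were lost after quantile normalization (0.097 and 0.078), the first without array 1 of ZT24 SA 3 h (0.11), array 2 of ZT24 SA 3 h (0.11) or array 2 of ZT24 water 3 h (0.097), and the second without array 2 of ZT36 SA 3 h (0.23), array 1 of ZT36 SA 3 h (0.08), array 2 of ZT36 water 3 h (0.086) or array 3 of ZT36 water 3 h (0.091). Against SA 0 h it stood at 0.57 and 0.56, not called. UGT73B1 was higher than water 3 h at ZT24, by 0.53 ± 0.18 (adjusted p = 0.025), lost as a call without any of 4 of the 6 compared arrays (adjusted p of 0.054 to 0.13), and was not called in the other 3 comparisons. UGT73C2 and UGT73C7 passed no test, at -0.12 to 0.06.

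UGT87A2, an enzyme tied to flowering time and abiotic stress, stood at -0.14, 0.16 and -0.15 in water 3 h, -0.81, -0.38 and 0.10 in SA 0 h and 1.77, 1.36 and 1.25 in SA 3 h after ZT24. After ZT36 it stood at -0.67, -0.84 and -0.77 in water 3 h, -0.01, 0.15 and 0.00 in SA 0 h and 1.79, 1.87 and 1.66 in SA 3 h. Every SA 3 h array stood at 1.25 or more, and no other array of the 24 was above 0.16. The rise was 1.51 ± 0.19 at ZT24 and 2.53 ± 0.19 at ZT36 against water 3 h (limma adjusted p = 1.5e-06 and 9.9e-10), and 1.83 ± 0.19 and 1.72 ± 0.19 against SA 0 h.

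**Figure D3:**
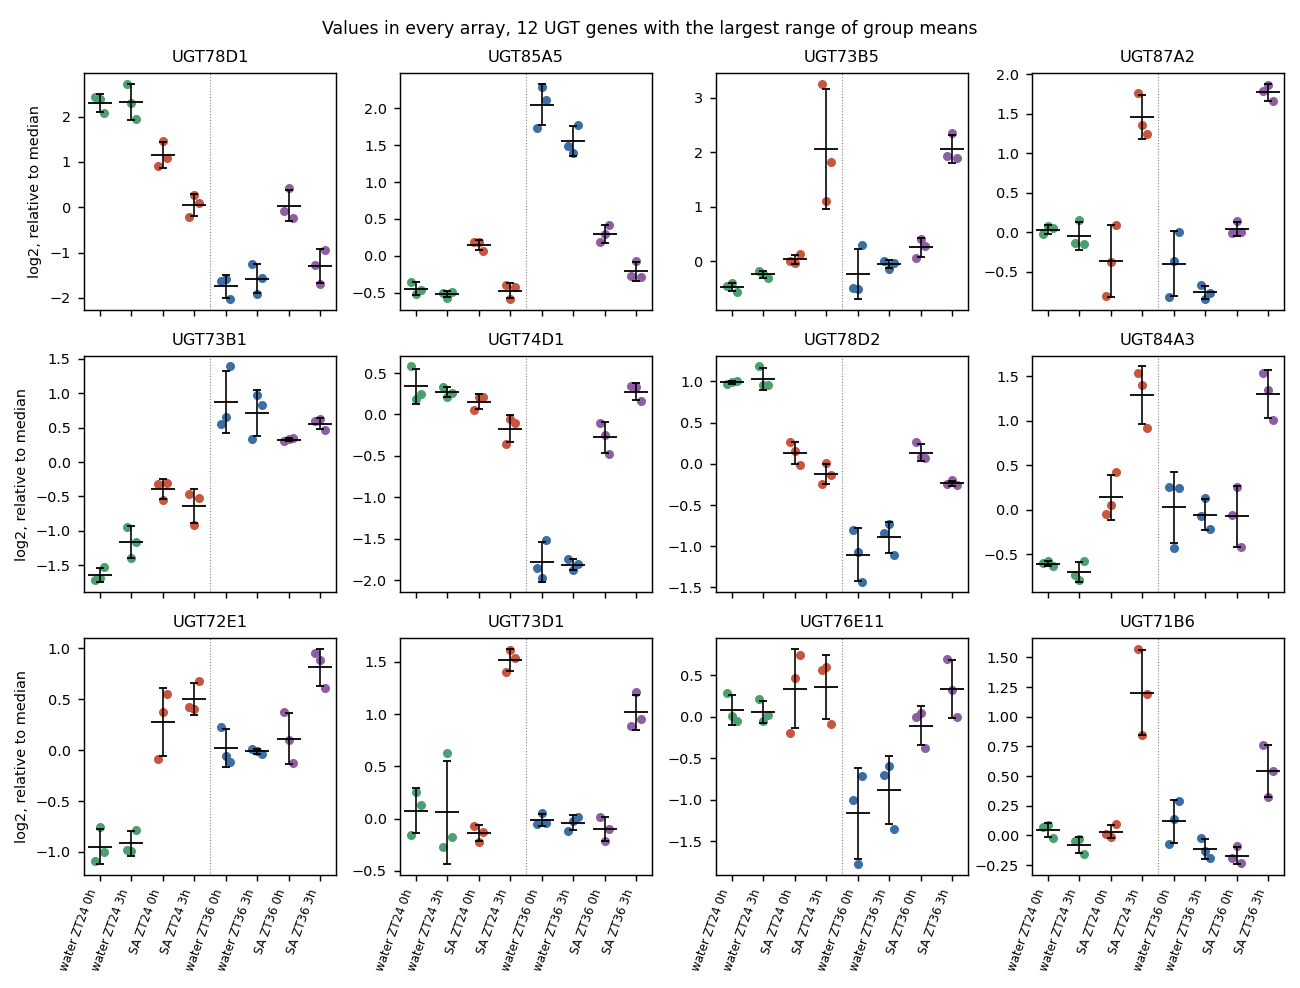
Values in every array for the 12 UGT genes with the largest range of group means, as log2 expression relative to each gene's median over 24 arrays, with 8 groups on the horizontal axis. Points are single arrays, and bars give the mean and SD of 3. The SA 3 h points of UGT73B5, UGT73D1, UGT84A3 and UGT87A2 lie above their controls at both times, while UGT78D1, UGT78D2, UGT74D1 and UGT85A5 separate the water arrays by time.

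The hormone-conjugating members moved in both directions. UGT71B6 and UGT71C5 encode enzymes that form the glucose ester of abscisic acid, an inactive storage form of that stress hormone. UGT71B6 stood at -0.05, -0.03 and -0.16 in water 3 h, 0.01, -0.01 and 0.10 in SA 0 h and 1.57, 0.85 and 1.19 in SA 3 h after ZT24. The ZT36 values were -0.02, -0.13 and -0.19 in water 3 h, -0.19, -0.09 and -0.23 in SA 0 h and 0.76, 0.32 and 0.54 in SA 3 h, lower than after ZT24 but above both controls in every array. The rise was 1.29 ± 0.13 and 0.65 ± 0.13 against water 3 h, and 1.17 ± 0.13 and 0.71 ± 0.13 against SA 0 h. UGT71C5 stood at -0.56, -0.68 and -0.63 in water 3 h, -0.46, -0.46 and -0.34 in SA 0 h and 0.38, 0.05 and -0.02 in SA 3 h after ZT24, and rose by 0.76 ± 0.11 and 0.55 ± 0.11. At ZT36 it rose by 0.47 ± 0.11 against SA 0 h and stood at 0.15 ± 0.11 against water 3 h, not called.

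UGT76C1 and UGT76C2, whose enzymes inactivate cytokinins by N-glucosylation, fell. UGT76C1 stood at -0.09, 0.00 and -0.03 in water 3 h, 0.21, 0.17 and 0.03 in SA 0 h and -0.56, -0.46 and -0.58 in SA 3 h after ZT24. At ZT36 the arrays read 0.05, 0.08 and 0.38 in water 3 h, -0.17, -0.05 and 0.10 in SA 0 h and -0.81, -0.98 and -0.75 in SA 3 h, with the SA 3 h arrays below all others at both times. The differences from water 3 h were -0.49 ± 0.10 at ZT24 and -1.01 ± 0.10 at ZT36, and from SA 0 h they were -0.67 ± 0.10 and -0.80 ± 0.10. UGT76C2 stood at -0.01, -0.03 and -0.21 in water 3 h, 0.94, 0.77 and 0.82 in SA 0 h and -0.30, 0.01 and -0.17 in SA 3 h after ZT24, so its ZT24 result depended on the control: -0.07 ± 0.14 against water 3 h, not called, and -0.99 ± 0.14 against SA 0 h (adjusted p = 1.2e-05). At ZT36 it was lower under both, at -0.85 ± 0.14 and -0.55 ± 0.14.

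UGT74D1, whose enzyme glucosylates auxins such as indole-3-butyric acid, was called in opposite directions at ZT24 and ZT36 with either control. UGT78D2 was so with water 3 h as control. UGT74D1 stood at 0.33, 0.21 and 0.26 in water 3 h, 0.05, 0.21 and 0.21 in SA 0 h and -0.36, -0.05 and -0.10 in SA 3 h after ZT24. After ZT36 it stood at -1.75, -1.88 and -1.81 in water 3 h, -0.10, -0.25 and -0.48 in SA 0 h and 0.34, 0.33 and 0.16 in SA 3 h. The SA 3 h arrays lay below both controls at ZT24 and above both at ZT36. Against water 3 h the differences were -0.44 ± 0.12 (adjusted p = 0.0063) and 2.09 ± 0.12 (adjusted p = 3e-11). Against SA 0 h they were -0.33 ± 0.12 (adjusted p = 0.045) and 0.55 ± 0.12 (adjusted p = 0.0012), of which the first was lost without array 1 of ZT24 SA 3 h (0.22), array 3 of ZT24 SA 3 h (0.054), array 2 of ZT24 SA 0 h or 3 (0.12 each) and after quantile normalization (0.13), with only the compared arrays (0.07), with a trended and robust prior (0.12) and with array weights (0.074).

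Of the UGT76E genes, whose enzymes glucosylate the jasmonate catabolite 12-hydroxyjasmonic acid, UGT76E1 rose in all 4 comparisons but by little, from 0.18 to 0.25. Its call against water 3 h at ZT36 was kept under every other fit and without any 1 array, and the other 3 were lost without 1 array (adjusted p of up to 0.16). UGT76E11 stood at -0.70, -0.59 and -1.35 in water 3 h, 0.00, 0.05 and -0.38 in SA 0 h and 0.70, 0.32 and 0.00 in SA 3 h after ZT36, and rose by 1.22 ± 0.27 against water 3 h (adjusted p = 0.00089). It was not called against SA 0 h (0.45 ± 0.27) nor at ZT24 (0.30 and 0.02). UGT76E12 stood at 2.06, 0.36 and -0.01 in SA 3 h after ZT36. Its call against water 3 h there, 0.98 ± 0.34, was lost without array 1 of ZT36 SA 3 h, where the difference was 0.35 (adjusted p = 0.28), and also without array 1 of ZT36 water 3 h (0.08) or 2 (0.076), after quantile normalization (0.061) and with only the compared arrays (0.14). UGT76E2 passed no test.

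UGT74B1, which encodes the S-glucosyltransferase of glucosinolate synthesis, fell in all 4 comparisons. It stood at 0.51, 0.07 and 0.06 in water 3 h, -0.23, 0.36 and 0.03 in SA 0 h and -0.60, -0.63 and -0.75 in SA 3 h after ZT24, and at 0.17, -0.22 and 0.16 in water 3 h, 0.37, 0.49 and 0.20 in SA 0 h and -0.33, -0.49 and -0.27 in SA 3 h after ZT36. The SA 3 h arrays were below both controls at both times. The differences from SA 0 h were -0.72 ± 0.15 and -0.71 ± 0.15, and from water 3 h they were -0.87 ± 0.15 at ZT24 and -0.40 ± 0.15 at ZT36. The last, with adjusted p = 0.037, was lost after quantile normalization (0.2) and without array 1 of ZT36 water 3 h (0.14) or 3 (0.13) or array 1 of ZT36 SA 3 h (0.063) or 2 (0.14).

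In the flavonol branch the outcome depended on the control. UGT78D1 and UGT78D2 encode the flavonol 3-O-rhamnosyl- and 3-O-glucosyltransferase of leaves, and UGT78D3 a flavonol 3-O-arabinosyltransferase. UGT78D1 stood at 2.72, 2.30 and 1.94 in water 3 h, 0.91, 1.47 and 1.08 in SA 0 h and -0.21, 0.27 and 0.09 in SA 3 h after ZT24. The ZT36 values were -1.26, -1.91 and -1.56 in water 3 h, -0.09, 0.42 and -0.23 in SA 0 h and -1.27, -1.69 and -0.94 in SA 3 h. At ZT24 the SA 3 h arrays were below both controls, at -2.27 ± 0.23 with water 3 h and -1.10 ± 0.23 with SA 0 h as control. At ZT36 they were below SA 0 h (-1.33 ± 0.23, adjusted p = 0.00011), while against water 3 h the difference was 0.28 ± 0.23, with overlapping arrays and no call.

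UGT78D2 stood at 1.18, 0.95 and 0.95 in water 3 h, 0.26, 0.15 and -0.01 in SA 0 h and -0.24, 0.01 and -0.14 in SA 3 h after ZT24. At ZT36 the arrays read -0.84, -0.73 and -1.10 in water 3 h, 0.26, 0.08 and 0.07 in SA 0 h and -0.25, -0.20 and -0.26 in SA 3 h, which places the SA 3 h arrays between the controls. It was the member called with opposite signs by control: at ZT36 it was higher than water 3 h by 0.66 ± 0.12 (adjusted p = 0.00018) and lower than SA 0 h, at -0.37 ± 0.12 (adjusted p = 0.026). The second call was lost without array 1 of ZT36 SA 0 h (0.11) or array 1 of ZT36 SA 3 h (0.065) or 3 (0.069). At ZT24 it was lower than water 3 h, at -1.15 ± 0.12, and stood at -0.25 ± 0.12 against SA 0 h, not called. UGT78D3 was not called, at -0.18 to -0.02. GI moved with the choice of control at ZT36 as well, at -2.83 ± 0.20 with water 3 h and -0.23 ± 0.20 with SA 0 h as control, and its part in these results was not tested.

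UGT85A5 also depended on the control. It stood at -0.51, -0.57 and -0.49 in water 3 h, 0.18, 0.19 and 0.07 in SA 0 h and -0.40, -0.59 and -0.43 in SA 3 h after ZT24, and at 1.49, 1.39 and 1.78 in water 3 h, 0.18, 0.29 and 0.42 in SA 0 h and -0.28, -0.07 and -0.29 in SA 3 h after ZT36. Against SA 0 h it was lower at both times, at -0.62 ± 0.12 and -0.51 ± 0.12. Against water 3 h it was lower at ZT36 alone (-1.77 ± 0.12, adjusted p = 1.6e-10), with 0.05 ± 0.12 at ZT24. UGT85A4 stood at 0.24, 0.36 and 0.10 in water 3 h, 0.08, 0.99 and 0.55 in SA 0 h and -0.84, -0.55 and 0.09 in SA 3 h after ZT24, and was lower under both controls, at -0.67 ± 0.20 and -0.97 ± 0.20. The first was lost without array 1 of ZT24 SA 3 h (adjusted p = 0.088) and after quantile normalization (0.061), and in the second the highest SA 3 h array, at 0.09, lay just above the lowest SA 0 h array, at 0.08. At ZT36 it stood at -0.45 and -0.37, not called.

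UGT85A2 stood at -0.56, -0.77 and -0.99 in water 3 h, -0.17, 0.24 and 0.09 in SA 0 h and 0.31, -0.01 and 0.13 in SA 3 h after ZT24, a difference of 0.92 ± 0.17 from water 3 h and of 0.09 ± 0.17 from SA 0 h, of which the first was called. At ZT36 it was called against SA 0 h (0.56 ± 0.17, adjusted p = 0.017), lost as a call after quantile normalization (0.098) and without array 1 of ZT36 SA 3 h (0.052) or 2 (0.069) or array 3 of ZT36 SA 0 h (0.051). UGT85A3 was called at ZT36 under both controls, by 0.44 and 0.45, and both calls were lost after quantile normalization (0.14 and 0.17) and without array 1 of ZT36 SA 3 h (0.082 and 0.1). UGT80B1, a sterol glucosyltransferase, stood at 0.91, 0.83 and 0.70 in water 3 h and -0.04, 0.25 and 0.38 in SA 3 h after ZT36. It was lower than water 3 h, at -0.62 ± 0.11, and stood at -0.15 ± 0.11 against SA 0 h, not called. UGT88A1 fell against SA 0 h at both times, at -0.35 and -0.44, while its call against water 3 h at ZT24 (-0.25, adjusted p = 0.036) was lost without 5 of the 6 compared arrays (0.061 to 0.15).

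Among the remaining UGT71 genes, UGT71C4 stood at 0.09, 0.18 and 0.32 in water 3 h and -0.44, -0.27 and -0.27 in SA 3 h after ZT24, and at -0.01, 0.02 and 0.09 in water 3 h and -0.44, -0.65 and -0.87 in SA 3 h after ZT36. It fell against water 3 h at both times, at -0.52 and -0.69, and against SA 0 h at ZT24, at -0.36, and stood at -0.09 against SA 0 h at ZT36. UGT71C2 rose at ZT36 by 0.42 with water 3 h and 0.32 with SA 0 h as control, the second lost without 4 of the 6 compared arrays (adjusted p of 0.092 to 0.17) and after quantile normalization (0.057). UGT71C1 was called at ZT24, at 0.30 and 0.37, and both calls were lost without array 1 of ZT24 SA 3 h (0.16, adjusted p = 0.24, and 0.22, adjusted p = 0.099) and with only the compared arrays (0.2 and 0.13). The first was also lost without array 2 of ZT24 SA 3 h (0.084), array 1 of ZT24 water 3 h (0.089) or array 3 of ZT24 water 3 h (0.078), after quantile normalization (0.059) and with array weights (0.078), and was 0.48 without array 3 of ZT24 SA 3 h. UGT71B1 differed from water 3 h at ZT24 by -0.51, lost as a call without array 3 of ZT24 SA 3 h (-0.36, adjusted p = 0.082), and by -0.12 to 0.38 in the other 3. UGT71B5, at -0.15 to 0.11, was not called for SA, nor were UGT71B8 and UGT71C3, whose enzyme acts on methyl salicylate.

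In all, 14 of the 45 genes (31.1%, beside 43.6% of all probe sets) were called in none of the 4 SA 3 h comparisons. Of these, 10 passed neither the F test nor any of the 14 contrasts: UGT71B8, UGT71C3, UGT72E2, UGT72E3, UGT73C2, UGT73C7, UGT76D1, UGT76E2, UGT84B2 and UGT85A7. Members called in none of the 14 contrasts were 22.2%, beside 29.5% of all probe sets. The enzyme of UGT76D1 acts on dihydroxybenzoic acids, the hydroxylated breakdown products of SA, and that of UGT73C7 acts on phenylpropanoids in immunity. The other 4 of the 14, UGT71B5, UGT72B3, UGT78D3 and UGT84B1, were called in comparisons of time or at 0 h. Because the values are centred, whether these genes were expressed at all cannot be read here. UGT76B1, for reference, rose by 7.75 to 8.66 (SE 0.13) in the same 4 comparisons, and UGT74F1 stood at 0.13 to 0.36.

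Water-treated leaves differed by time of treatment in UGT genes about as often as in the array as a whole. Between ZT24 and ZT36, 17 genes were called in water 0 h (37.8%, beside 40.9% of all probe sets; 8 higher beside 18.7% and 9 lower beside 22.2%) and 18 in water 3 h (40%, beside 38.1%; 9 higher beside 16.8% and 9 lower beside 21.2%). The 2 comparisons share no array, and 15 genes were called in both, 7 higher and 8 lower at ZT24. None had opposite signs, beside 0.0718% of all probe sets called in both. They are 88.2% of the first list and 83.3% of the second, beside 74.8% and 80.4% over all probe sets. Higher were UGT72B3, UGT74D1, UGT76E1, UGT76E11, UGT78D1, UGT78D2 and UGT88A1, and lower were UGT71C5, UGT72E1, UGT73B1, UGT80B1, UGT84A3, UGT85A2, UGT85A3 and UGT85A5. The 7 are 15.6% of the members beside 13.1% of all probe sets, and the 8 are 17.8% beside 17.5%.

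UGT78D1 had the largest difference of the first set in both water comparisons, followed by UGT74D1 and UGT78D2. In water 0 h UGT78D1 stood at 2.44, 2.38 and 2.07 at ZT24 and at -1.62, -1.59 and -2.03 at ZT36, a difference of 4.04 ± 0.23 (limma adjusted p = 1.3e-11), and in water 3 h the difference was 3.90 ± 0.23. UGT78D2 stood at 0.97, 0.99 and 1.00 and at -0.80, -1.07 and -1.43, a difference of 2.09 ± 0.12, with 1.92 ± 0.12 in water 3 h. The water arrays of ZT24 and ZT36 did not overlap for either gene. UGT78D3 was 0.10 apart in water 0 h, not called, and 0.29 in water 3 h, lost as a call without array 1 of ZT24 water 3 h (adjusted p = 0.099), array 3 of ZT24 water 3 h (0.055) or array 1 of ZT36 water 3 h (0.08). UGT74D1 stood at 0.58, 0.19 and 0.25 at ZT24 and at -1.85, -1.98 and -1.52 at ZT36, a difference of 2.13 ± 0.12, and 2.08 ± 0.12 in water 3 h. UGT72B3 stood at 0.31, 0.36 and 0.34 and at -0.40, -0.85 and -0.90, without overlap. It differed by 1.05 ± 0.15 and 1.06 ± 0.15, and UGT88A1 by 0.64 ± 0.09 and 0.57 ± 0.09. UGT76E11 differed by 1.25 ± 0.27 and 0.94 ± 0.27, the second lost without array 3 of ZT36 water 3 h (0.71, adjusted p = 0.069), and UGT76E1 by 0.17 and 0.18, calls lost under several alternatives (adjusted p of up to 0.17).

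UGT85A5 and UGT73B1 led the second set. UGT85A5 stood at -0.35, -0.52 and -0.47 in water 0 h at ZT24 and at 1.74, 2.29 and 2.12 at ZT36, a difference of -2.50 ± 0.12 (adjusted p = 5.5e-13), with -2.07 ± 0.12 in water 3 h. UGT73B1 stood at -1.71, -1.69 and -1.53 and at 0.56, 0.66 and 1.39, a difference of -2.51 ± 0.18, with -1.88 ± 0.18 in water 3 h, where it stood at -0.94, -1.40 and -1.16 at ZT24 and 0.34, 0.98 and 0.83 at ZT36. The groups did not overlap for either gene. UGT85A2 stood at -0.64, -0.91 and -0.90 in water 0 h at ZT24 and at 0.60, -0.02 and 0.33 at ZT36, and UGT80B1 at -0.39, -0.35 and -0.32 and at 0.91, 0.76 and 0.57, again without overlap. UGT85A2 differed by -1.12 ± 0.17 and -0.98 ± 0.17, UGT80B1 by -1.10 ± 0.11 and -1.18 ± 0.11, UGT71C5 by -1.02 ± 0.11 and -0.89 ± 0.11, and UGT72E1 by -0.97 ± 0.15 and -0.90 ± 0.15. UGT84A3 differed by -0.63 ± 0.20 and -0.64 ± 0.20, lost without array 1 of ZT36 water 0 h (adjusted p = 0.07) or 3 (0.075) and without array 2 of ZT36 water 3 h (0.063). UGT85A3 differed by -0.56 ± 0.14 and -0.35 ± 0.14, the second lost without any of 5 arrays (adjusted p of 0.055 to 0.25) and with only the compared arrays (0.07).

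In the SA arrays the time differences were nearer to 0 for most of these 15. The 15 were picked by their calls in the water arrays, so smaller values in the SA arrays can follow from the choice alone. Over all 45 members the median absolute time difference was 0.24 in water 0 h and 0.18 in water 3 h. In SA 0 h and SA 3 h it was 0.19 and 0.28. The time difference in SA 3 h minus that in water 3 h is the gating value of the interaction test. Among the 15 it was called for UGT71C5, UGT74D1, UGT78D1, UGT78D2, UGT80B1 and UGT85A5. It was called for 20.7% of all probe sets, which were not picked by their water calls. The value uses the same water 3 h arrays that helped pick the 15, so it does not get round that choice. In the arrays labelled SA 0 h, 13 of the 45 genes were called (28.9%, beside 24.5% of all probe sets; 9 higher beside 9.82% and 4 lower beside 14.6%), and in SA 3 h 16 were (35.6%, beside 28%; 11 higher beside 11.6% and 5 lower beside 16.3%). UGT78D1 differed by 1.12 ± 0.23 and 1.35 ± 0.23, UGT73B1 by -0.72 ± 0.18 and -1.20 ± 0.18, and both were called in all 4 time comparisons, as were UGT72B3, UGT80B1 and UGT88A1. The 3 higher at ZT24 in all 4 (UGT72B3, UGT78D1 and UGT88A1) are 6.67% of the members beside 3.72% of all probe sets, and the other two, lower at ZT24, are 4.44% beside 5.57%. The SA 3 h calls of UGT72B3 and UGT80B1 were lost after quantile normalization (adjusted p = 0.063 and 0.16) and without array 3 of ZT24 SA 3 h (0.11) or array 3 of ZT36 SA 3 h (0.08). UGT78D2 stood at -0.01 and 0.11 and UGT85A5 at -0.15 and -0.26, none of them called, beside 2.09 and 1.92 for the first gene and -2.50 and -2.07 for the second in water. GI was likewise nearer to 0 in the SA arrays, at -0.41 ± 0.20 and -0.67 ± 0.20, beside -4.10 ± 0.20 and -4.18 ± 0.20 in water. The call of GI in SA 3 h was lost after quantile normalization (adjusted p = 0.32) and without array 1 of ZT36 SA 3 h (0.074) or array 3 of ZT24 SA 3 h (0.062).

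**Figure D4:**
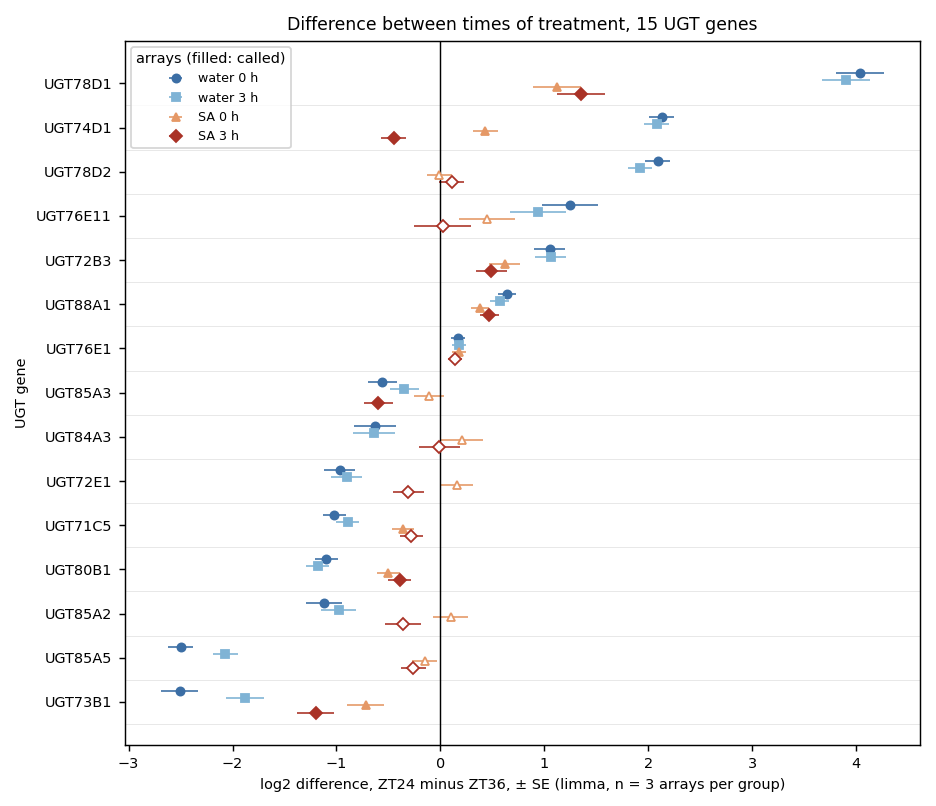
Log2 difference between ZT24 and ZT36, ± SE (limma, n = 3 arrays per group), in the water 0 h, water 3 h, SA 0 h and SA 3 h arrays, for the 15 UGT genes called in both water comparisons, with filled points for called differences. The blue water points, by which the genes were chosen, pair up for each gene, from 4.04 and 3.90 for UGT78D1 to -2.51 and -1.88 for UGT73B1. Most SA points lie nearer to 0, which can follow from that choice.

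At 0 h, where the labels give no time for SA to act, 9 genes differed between SA and water at ZT24 (20%, beside 16.2% of all probe sets; 6 higher beside 8.26% and 3 lower beside 7.95%) and 16 at ZT36 (35.6%, beside 29%; 9 higher beside 15.1% and 7 lower beside 13.9%). UGT78D1, UGT78D2, UGT73B1, UGT85A5 and UGT71B1 were called at both times, each with opposite signs. Over all probe sets, 1918 were called at both times and 64.1% of them had opposite signs. UGT78D1 was lower at ZT24 (-1.14 ± 0.23) and higher at ZT36 (1.78 ± 0.23), and so was UGT78D2 (-0.86 ± 0.12 and 1.24 ± 0.12). UGT85A5 was higher at ZT24 (0.60 ± 0.12) and lower at ZT36 (-1.75 ± 0.12), as was UGT73B1 (1.25 ± 0.18 and -0.54 ± 0.18), whose ZT36 call was lost without array 3 of ZT36 water 0 h (adjusted p = 0.25) or any of the 3 SA 0 h arrays (0.061 to 0.08), after quantile normalization (0.16) and with only the compared arrays (0.1). UGT71B1 stood at -0.48, lost as a call without any of 4 arrays (0.065 to 0.14), and at 0.79. UGT74D1 was higher in SA 0 h at ZT36 by 1.51 ± 0.12, and UGT76C2 at ZT24 by 1.04 ± 0.14.

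The study's question, by its title, is whether the SA response is gated by time, and the difference between the ZT24 and ZT36 effects addresses it. With water 3 h as control, 11 of the 45 genes were called (24.4%, beside 20.7% of all probe sets), 6 with the higher effect at ZT24 (beside 10.4%) and 5 with the lower (beside 10.3%). With SA 0 h as control, 1 was (2.22%, beside 0.598%), which was UGT74D1, with the lower effect at ZT24 (beside 0.193%). That count was 3 after quantile normalization, with UGT71C4 (-0.65) and UGT76C2 (-0.78), and 2 without array 3 of ZT24 SA 3 h, with UGT71C1 (0.54). The pair of tests shares the SA 3 h arrays, so their values stand side by side. UGT74D1 stood at -2.52 ± 0.17 (adjusted p = 6.7e-09) with water 3 h and at -0.88 ± 0.17 (adjusted p = 0.02) with SA 0 h. The second was lost with a trended and robust prior (0.079) and without array 2 of ZT36 SA 0 h (0.05), array 3 of ZT36 SA 0 h (0.057) or array 2 of ZT36 SA 3 h (0.061).

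UGT78D1 stood at -2.55 ± 0.32 with water 3 h as control and at 0.23 ± 0.32 with SA 0 h, and UGT78D2 at -1.80 ± 0.18 and 0.12 ± 0.18. UGT85A5 stood at 1.82 ± 0.16 and -0.11 ± 0.16, and UGT87A2 at -1.02 ± 0.27 and 0.10 ± 0.27. For these 4 the value with SA 0 h was of the other sign and within 1 SE of 0. UGT71B1 stood at -0.89 ± 0.22 and 0.02 ± 0.22, UGT71C5 at 0.60 ± 0.16 and 0.08 ± 0.16, UGT76C1 at 0.52 ± 0.14 and 0.13 ± 0.14, and UGT80B1 at 0.79 ± 0.16 and 0.11 ± 0.16. Their values with SA 0 h were within 1 SE of 0 too. UGT76C2 stood at 0.78 ± 0.20 and -0.45 ± 0.20, also with opposite signs. UGT71B6, an abscisic acid conjugator as UGT71C5 is, stood at 0.63 ± 0.19 (adjusted p = 0.02) and 0.46 ± 0.19 (not called). The first was lost with only the compared arrays (0.068) and without array 1 of ZT24 SA 3 h (0.058) or array 2 of ZT36 SA 3 h (0.068). GI stood at 3.51 ± 0.29 and -0.27 ± 0.29, and its part in these differences was not tested.

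**Figure D5:**
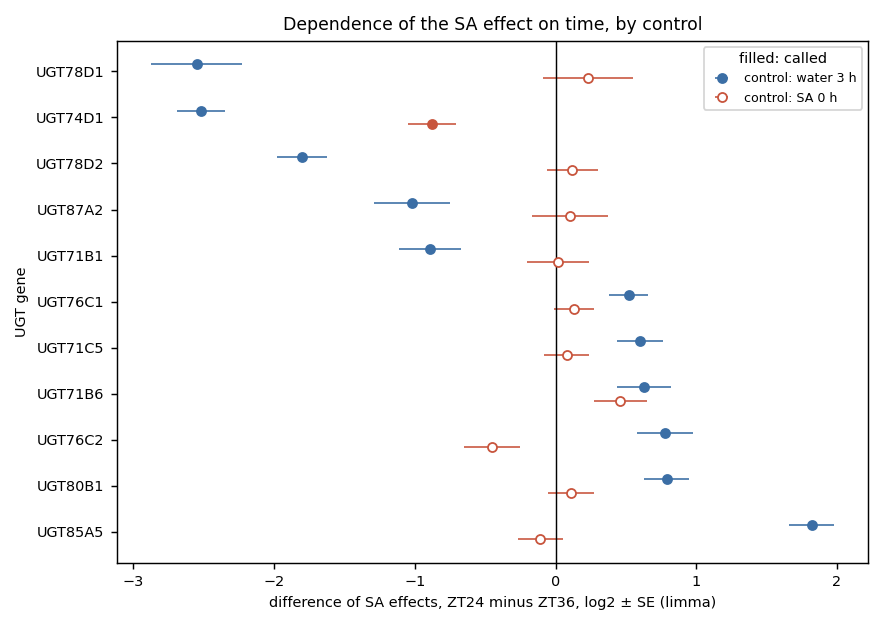
Difference of the SA effects at ZT24 and ZT36 in log2 units, ± SE (limma), for the 11 UGT genes called with at least 1 control, with water 3 h (blue) or SA 0 h (red) as control and filled points for called values. All 11 blue points are filled and run from -2.55 to 1.82, and only UGT74D1 is also filled in red, at -0.88.

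Genes that neighbour each other in the genome, with at most 2 other protein-coding genes between, made up 13 clusters with 31 of the members, each cluster within 1 number group. As a description, the profiles of the 24 neighbour pairs over the 8 group means correlated with a median r of 0.46, from -0.60 to 0.89, against -0.07 for the 84 pairs of one number group that are not neighbours and 0.07 for the 882 pairs of different number groups. The points of each r are the same 8 group means, related genes may share array signal, and no test is attached. UGT73B4 and UGT73B5 (0.89), UGT85A2 and UGT85A3 (0.89) and UGT84A3 and UGT84A4 (0.86) were the most alike neighbours, and UGT71C4 and UGT71C5 (-0.60) the least. Some pairs that are not neighbours were as alike: UGT84A4 and UGT87A2 (0.97), UGT73B4 and UGT73C1 (0.96) and UGT78D1 and UGT78D2 (0.95). The most opposed profiles were UGT71C5 and UGT78D1 (-0.97), UGT76C1 and UGT87A2 (-0.97) and UGT74D1 and UGT85A5 (-0.95).

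Outside the family, the 5 genes whose values over the 24 arrays correlated best with those of UGT78D1, the member with the largest range, were AT1G70985 (r = 0.983), AT5G42760 (0.979), AT5G63060 (0.978), AT4G14240 (0.977) and AOR (0.976), which encodes an alkenal reductase of the chloroplast. Their differences between ZT24 and ZT36 in water 0 h were 3.72, 5.26, 1.71, 1.66 and 2.78 in that order. The direction follows from picking the genes by likeness over the same arrays and is no separate result. Within the family the most alike were UGT78D2 (0.931), UGT88A1 (0.863) and UGT72B3 (0.859).

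Few other genes of the pathways that UGT enzymes serve had a named probe set: 4 of 20 listed for flavonoids and anthocyanins, 3 of 21 for phenylpropanoids, 1 of 31 for UDP-sugar supply and 1 of 20 for glucosinolates. Of the 4 flavonoid genes, CHIL, a chalcone isomerase-like gene, was higher at ZT24 in water, as UGT78D1 and UGT78D2 were. It differed by 3.97 ± 0.18 in water 0 h and 4.36 ± 0.18 in water 3 h, and by 2.80 ± 0.18 and 1.74 ± 0.18 in SA 0 h and SA 3 h. It fell at ZT24, at -2.92 ± 0.18 with water 3 h and -1.34 ± 0.18 with SA 0 h as control, and stood at -0.30 and -0.28 at ZT36, not called. DFR, BAN and AT5MAT were not called for SA in any of the 4 comparisons. By time in water, DFR (0.12 and 0.55) and AT5MAT (-0.08 and 0.21) were not called. BAN stood at 0.20, not called, in water 0 h and at 0.27 in water 3 h, a call lost without 1 array (adjusted p of up to 0.16). Of the 3 phenylpropanoid genes, CCR2, a cinnamoyl-CoA reductase, rose at ZT24 by 1.43 ± 0.15 with water 3 h and 1.22 ± 0.15 with SA 0 h as control, and HCT, an enzyme of monolignol synthesis, fell against SA 0 h at both times (-0.64 and -0.77) and was not called against water 3 h (-0.21 and 0.13). REF1 (ALDH2C4), an aldehyde dehydrogenase that makes sinapic and ferulic acid, was called at ZT36 against water 3 h (0.38) and at ZT24 against SA 0 h (0.48), and both calls were lost without 1 array (adjusted p of up to 0.14), the first also after quantile normalization (0.41) and the second with array weights (0.25). USP, which makes UDP-sugars, was not called for SA. GSTU20, the 1 glucosinolate gene measured, fell at ZT24, at -2.39 ± 0.28 with water 3 h and -1.26 ± 0.28 with SA 0 h as control. At ZT36 it fell against SA 0 h, at -1.29 ± 0.28, and was not called against water 3 h, at -0.63 ± 0.28.

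Markers of leaf cell types were measured for 3 of 4 mesophyll genes and 1 of 3 guard cell genes, and for none of the trichome, vascular, root or flower and seed lists. FMA, a guard cell gene, was lower in the SA 3 h arrays in all 4 comparisons, with differences of -0.44 and -0.31 at ZT24 and -0.48 and -0.40 at ZT36 (SE 0.11). Its ZT24 calls were lost after quantile normalization (adjusted p = 0.081 and 0.65), the second also without 1 array (up to 0.23), and the ZT36 call against SA 0 h without array 2 of ZT36 SA 0 h (0.063). Of the mesophyll genes, LHCB4.2 was lower at ZT36, at -1.04 ± 0.12 with water 3 h and -0.65 ± 0.12 with SA 0 h as control, the second lost after quantile normalization (0.04, adjusted p = 0.89), and LHCB4.1 too, at -0.40 ± 0.08 and -0.23 ± 0.08, the second lost after quantile normalization (adjusted p = 0.34) and without 1 array (up to 0.2). RCA was not called. The part of these markers in the UGT results was not tested.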

How the data were processed

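Total RNA of 24 leaf samples in 8 groups of 3 was measured on Affymetrix arrays. The deposited values are log2 expression made by the authors with RMA, per the submitters' processing notes, and each probe set is centred on its median over the 24 arrays (the largest remaining median was 5e-07), a step found in the values that no source used here describes. Log base 2 follows from RMA. Levels and detection are lost by the centring, so no dim probe sets could be left out, and precision is limited by the number of arrays. The array medians lay between -0.035 and 0.033.

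Of 22810 probe sets, 64 array controls were removed. Symbols came from the platform annotation, in which 13513 probe sets have 1 symbol, 503 have several and 8730 are unnamed here. Of those with 1 symbol, 13436 matched the RefSeq gene table of TAIR10.1, which was used for names and neighbours only. No coordinates are given, since the sources used here name no build for the array, and no sequences were used.

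A mean per group was fitted to all 24 arrays with limma 3.58.1 (R 4.3.3; tables and figures with Python 3.11.15, pandas 2.3.3 and matplotlib 3.10.9), followed by empirical Bayes moderation (16 residual and 4.03 prior degrees of freedom). There were 14 contrasts and 1 F test over the groups, each with Benjamini-Hochberg adjustment over all probe sets at 0.05. The code was tested on simulated data with known changes. The p-values measure the spread between arrays that the labels call biological replicates, with no statement of separate plants or pools. Alternatives were quantile normalization, array weights, a prior that was trended and robust, a fit to the compared arrays alone, leaving out the share of 0.2 of probe sets with the lowest SD, a threshold of 1 on the log2 scale, a replicate block, and leaving out each array. Quantile normalization was run on the centred values and gives every array the same distribution. Before it, the SD over all probe sets ran from 0.286 (ZT36 SA 0 h, array 2) to 0.648 (ZT24 SA 3 h, array 1). Calls lost or gained after this step can follow from the levelling of these spreads, which was not tested.

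All members are accounted for by number group. Values in every array are given for the 12 with the largest range of group means and for up to 4 of the largest called rises and falls of the comparisons, and up to 4 called genes are named from each pathway list. The members and lists were chosen with earlier results of these data known.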

Additional observations from a re-analysis of the deposited data

Results flagged for a closer look

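The SA effect differed for 12 values of UGT genes between ZT24 and ZT36, tested as an interaction in limma with Benjamini-Hochberg adjustment over all probe sets. They come from 11 of the 45 genes with water 3 h as control (24.4%, beside 20.7% of all probe sets) and 1 with SA 0 h (2.22%, beside 0.598%). Whether the labels of the water 3 h and SA 0 h arrays are right was not tested. With water 3 h as control, the effect at ZT24 was the lower one for UGT74D1 (-2.52 ± 0.17, adjusted p = 6.7e-09), UGT78D1 (-2.55 ± 0.32, 1.2e-05), UGT78D2 (-1.80 ± 0.18, 4.7e-07), UGT87A2 (-1.02 ± 0.27, 0.0088) and UGT71B1 (-0.89 ± 0.22, 0.0052). It was the higher one for UGT85A5 (1.82 ± 0.16, 1.8e-07), UGT80B1 (0.79 ± 0.16, 0.00099), UGT76C2 (0.78 ± 0.20, 0.0085), UGT71B6 (0.63 ± 0.19, 0.02), UGT71C5 (0.60 ± 0.16, 0.0086) and UGT76C1 (0.52 ± 0.14, 0.011). With SA 0 h as control, UGT74D1 alone differed (-0.88 ± 0.17, adjusted p = 0.02). The call of UGT71B6 was lost without array 1 of ZT24 SA 3 h (0.058) or array 2 of ZT36 SA 3 h (0.068), and that of UGT74D1 with SA 0 h as control without any of 3 arrays (0.05 to 0.061).

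With SA 0 h in place of water 3 h, UGT87A2 stood at 0.10, UGT80B1 at 0.11 and UGT76C2 at -0.45, none of them called. The time difference of GI was -4.10 and -4.18 in the water arrays and -0.41 and -0.67 in the SA arrays. That of UGT80B1 was also nearer to 0 in the SA arrays (-0.50 and -0.39, beside -1.10 and -1.18 in water). Those of UGT76C2 and UGT87A2 changed sign instead. For UGT87A2 they were 0.43 and 0.72 in water and -0.41 and -0.31 in SA, of which only 0.72 was called. The part of GI in these values was not tested.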

How the results depend on the processing

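Of 187 calls of UGT genes over 14 contrasts, 129 were kept and 58 were lost under some of the other fits, the filter and the omission of single arrays, and 0 changed sign. The 64 calls of at least 1 on the log2 scale, which alone can pass a threshold of that size, were all kept under these. Leaving out single arrays lost 55 calls, quantile normalization 26, the compared arrays alone 24, array weights 7, the trended and robust prior 3 and the filter on low SD 3.

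With a threshold of 1 on the log2 scale added, the SA 3 h arrays differed from water 3 h in 10 genes at ZT24 and 9 at ZT36, and from SA 0 h in 6 and 5. The interaction with time then gave 5 genes with water 3 h and 0 with SA 0 h as control, SA and water at 0 h differed in 4 genes at ZT24 and 5 at ZT36, and ZT24 and ZT36 differed in 10 genes in water 0 h, 7 in water 3 h, 1 in SA 0 h and 2 in SA 3 h. The interaction with SA 0 h as control gave 3 genes after quantile normalization and 0 with the trended and robust prior. The time difference in SA 3 h gave 7 genes after quantile normalization, and water 3 h against water 0 h at ZT36 gave 1 with array weights, UGT85A5 (-0.63, adjusted p = 0.0079). The causes were not tested. These counts stand without the share over all probe sets at the same setting, so they cannot be set beside the array as a whole.

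Without 1 array, the counts against water 3 h ran from 19 to 23 at ZT24 and from 17 to 24 at ZT36, and against SA 0 h from 17 to 21 and from 16 to 22. These and the following ranges also stand without the shares over all probe sets. The interaction gave 10 to 14 genes with water 3 h and 0 to 2 with SA 0 h. SA and water at 0 h gave 8 to 9 and 12 to 15. The time differences gave 14 to 18 in water 0 h, 15 to 16 in water 3 h, 9 to 13 in SA 0 h and 12 to 15 in SA 3 h. Water 3 h against water 0 h gave 0 to 0 at ZT24 and 0 to 1 at ZT36 (UGT85A5, without array 1 of ZT36 water 0 h or array 3 of ZT36 water 3 h), and the F test 30 to 34.

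The titles number the arrays in runs of 8. Same-run arrays of different groups had deviations correlated at a median of 0.04, from -0.36 to 0.45, beside -0.02 for arrays of other runs. Of 84 such pairs 25 were over 0.1. A run effect need not raise every pair, so these values do not settle whether the runs are pairs. The labels name no pairing, and the main fit used none. As a hint of a run effect from the data alone, 14 of 24 arrays correlated best with their own run. With the replicate block, 1 call was lost, UGT74D1 against SA 0 h at ZT24 (adjusted p = 0.054).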
